A study of Drosophila melanogaster with 6 samples.

Results

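The genes described here encode proteins of the cytoplasmic ribosome of the fruit fly Drosophila melanogaster, together with their paralogs. They are the genes on the Affymetrix Drosophila Genome 2 array whose platform symbol starts with RpL or RpS followed by a digit or by P, taken from probe sets with exactly 1 gene symbol. Genes of the mitochondrial ribosome have other symbols and are not among them. Of 11981 genes named in this way on the array, 41 met the rule, through 47 of the 18769 probe sets tested. The brightest probe set stood for each of the 4 genes that had more than 1. RefSeq lists 92 fly genes with such symbols, and the other 51 were not analysed here. By name, 13 members are large subunit genes, 3 are stalk genes (RpLP0, RpLP1 and RpLP2), 10 are small subunit genes, 10 are lettered or numbered paralogs and 5 have names ending in -like.

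Embryos were collected 1 to 2 h after egg laying, and their total RNA was hybridised to the arrays. The mutant group, 3 arrays, came from mothers whose germ line was a clone mutant for zelda (zld), so that the egg lacked normal maternal zld function. The control group, 3 arrays, came from yw embryos, labelled wild type. The labels give neither the zld allele nor whether the embryos carried a paternal zld copy, so the model concerns the maternal contribution. The series text calls the arrays biological replicates, while a sample protocol speaks of duplicate collections. If arrays share a collection, p-values measure a spread that is partly technical.

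A ribosome consists of a small subunit, which reads the messenger RNA, and a large subunit, which joins amino acids. Each subunit holds many different proteins in a fixed stoichiometry, and losing a single gene copy of many of them slows fly development, the Minute phenotype. The stalk proteins recruit the GTPases that drive translation. The egg is loaded with ribosomes and with ribosomal protein transcripts by the mother, and the early embryo relies on this stock while its own genome is largely silent. Zelda is a maternally supplied zinc finger factor that opens chromatin for the first zygotic transcription. Several fly ribosomal protein genes have a second copy, and some of these copies are active mainly in the germ line.

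The zld transcript itself had signals of 263, 196 and 215 on the mutant arrays, against 1023, 1062 and 967 on the yw arrays (log2 fold change -2.11, SE 0.114, adjusted p = 0.000192, limma). Mutant and yw arrays did not overlap, and with the methods' t-test the difference was not called (adjusted p = 0.0836). Signals are linear intensities already scaled by the authors. The array median was 16.4 to 18.3 in the mutant and 20.3 to 23.3 in yw. Probe sets for Bacillus transcripts, which flies do not make, had a 95th percentile of 18.1 over 162 values, and signals at or under that level are called background here. Fold changes are mutant over yw, on the log2 scale of signal plus 16, so that they understate differences of dim genes. Only 3 arrays per group limit the precision of every value. Signals of different probe sets also depend on probe affinity, so an order of signals is one of probe sets, not of transcript levels. In whole-embryo RNA, fewer cells of a type and less RNA per cell cannot be told apart.

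Transcripts of later embryos set yw replicates 1 and 2 apart. The 8 measured of 11 listed muscle and matrix genes (among them Mlc1, vkg and Col4a1) summed to signals of 96.8 to 126 on the mutant arrays, against 425, 648 and 157 on yw replicates 1, 2 and 3. None of the 8 was called. For 7 of them (87.5%) the mutant arrays were all below the yw arrays, against 13.6% of all probe sets, and 4 of the 8 were in the background on every mutant array. The list was chosen with earlier results of these data known, so this share is a description and not a test. Without yw replicates 1 and 2 the median fold change of the 41 genes was -0.03, with 18 of 41 above 0 (7 of 26 for genes with a single-gene name), and that of all probe sets was -0.04. Then 0 members were called, with the 1 yw array left assumed to vary like the mutant arrays. The part of the later transcripts in the ribosomal protein signals was not tested.

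The embryos of both groups carried abundant signal for the ribosome. All 26 members with a single-gene name (large subunit, stalk and small subunit) were far above background, with signals of 1412 to 3560 over all arrays. On each mutant array, even the dimmest of the 26 was brighter than 99.0% to 99.2% of all probe sets, and on each yw array brighter than 98.3% to 99.0%. Their median signal was 2145, 2572 and 2711 on mutant replicates 1, 2 and 3, and 1991, 2133 and 2548 on yw replicates 1, 2 and 3. Together the 26 probe sets made up 1.69%, 2.0% and 2.1% of the summed signal of the mutant arrays, against 1.59%, 1.67% and 1.97% for yw. Both groups thus had brighter and dimmer arrays, and their ranges overlapped.

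None of the 41 genes passed the test at an adjusted p under 0.05 (limma, Benjamini-Hochberg over all probe sets), where 1.64% of all probe sets did, 0.863% as higher and 0.778% as lower in the mutant. At an unadjusted p under 0.05, 3 members were higher and 0 lower, against 6.69% and 8.67% of all probe sets. Fold changes were above 0 for 37 of the 41 genes, or 90.2%, with a median of 0.16 (28 of 41 and 0.02 after quantile normalization). By contrast, 38.1% of all probe sets were above 0 and their median was -0.05. Among the 677 other probe sets with a mean signal over 1000, 73.6% were above 0, with a median of 0.08. The 3 mutant arrays lay entirely above the 3 yw arrays for 3 members (7.32%), against 8.11% of all probe sets. These 3, RpS10a, RpL22-like and RpL7-like, are among the 9 members with a mean signal at or under 1000 (33.3%). Of the 32 members over 1000 the share was 0.0%, against 9.75% of the other probe sets over 1000. The mutant arrays lay entirely below for 0 members, against 13.6% of all probe sets. Of the 41 genes 2, RpL10Aa and RpS28-like, were in the background on all arrays, and both are among the 4 that were not above 0.

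**Figure D1:**
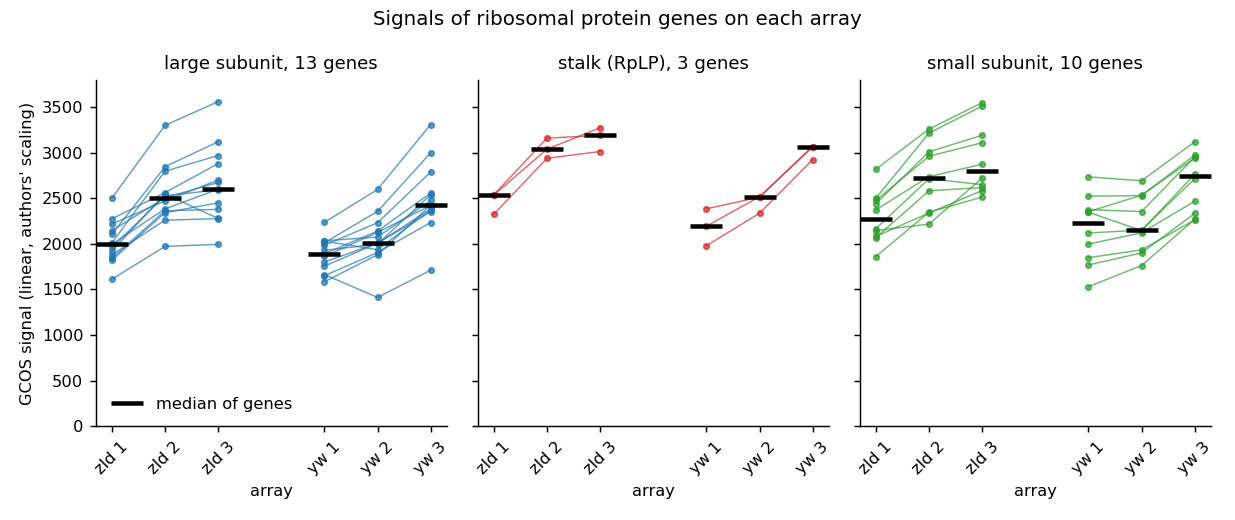
Signal of each of the 26 single-name ribosomal protein genes (vertical axis, linear, authors' scaling) on the 3 mutant (zld) and 3 yw arrays, in panels for large subunit, stalk and small subunit genes. Thin lines join the values of a gene within a group and carry no order, and black bars are medians over genes. Mutant replicate 1 is the lowest mutant array for all 26 genes, and yw replicate 3 the highest yw array for all 26.

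The 13 large subunit genes had fold changes of 0.06 to 0.27 (log2), none of them called, and the lowest adjusted p was 0.385 (limma). RpL15, whose probe set gave the highest signals of them, had 2500, 3299 and 3560 in the mutant and 2235, 2596 and 3309 in yw. The groups overlapped, and replicate 3 was the brightest array in both groups (log2 fold change 0.20, SE 0.18, adjusted p = 0.627, limma). RpL40, which is made as a fusion with ubiquitin and supplies both proteins, had signals of 2216, 2472 and 2700 in the mutant, against 1756, 2007 and 2382 in yw. Its fold change of 0.27 (SE 0.134, adjusted p = 0.385, limma) was the largest of the large subunit genes, and yw replicate 3 still exceeded mutant replicate 1. RpL32, long used as a reference gene in fly RNA work under the name rp49, averaged 2572 ± 303 in the mutant and 2195 ± 244 in yw (SD, n = 3 arrays each). Its log2 fold change was 0.23 and did not pass (SE 0.125, adjusted p = 0.431, limma). RpL3, a protein near the peptidyl transferase centre, had the smallest fold change of the 13, at 0.06 (SE 0.129, adjusted p = 0.853, limma), with 1878, 2260 and 2276 in the mutant and 1800, 2008 and 2351 in yw.

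The 3 stalk genes had no call, and their arrays fell in a like order. RpLP0, the stalk base, had 2536, 3038 and 3273 in the mutant, against 2194, 2517 and 3066 in yw. RpLP1 had 2540, 3159 and 3189 in the mutant, against 2384, 2512 and 3067 in yw. RpLP2 had 2325, 2938 and 3013 in the mutant, against 1979, 2336 and 2924 in yw. In each gene mutant replicate 1 was near the dimmer yw arrays and yw replicate 3 near the brighter mutant arrays. Their log2 fold changes were 0.19, 0.16 and 0.20, with adjusted p of 0.587, 0.62 and 0.597 (limma), so the differences did not pass.

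The 10 small subunit genes had fold changes of 0.11 to 0.34, none of them called (lowest adjusted p = 0.341, limma). The probe set of RpS18 had the highest mean signal of all members, with 2819, 3259 and 3548 in the mutant and 2735, 2691 and 3119 in yw (log2 fold change 0.17, SE 0.12, adjusted p = 0.546, limma). RpS27A, the other ubiquitin fusion gene among the members, had 2501, 3215 and 3510 in the mutant and 2523, 2530 and 2974 in yw. Mutant replicate 1 lay inside the range of the yw arrays for RpS18 and below all of them for RpS27A, whose log2 fold change was 0.19 (SE 0.145, adjusted p = 0.572, limma). RpS21, whose loss in larvae is known to cause overgrowth of the blood-forming organs, had the largest difference of the 10. Its signals were 2082, 2339 and 2585 in the mutant, against 1530, 1762 and 2269 in yw (log2 fold change 0.34, SE 0.155, adjusted p = 0.341, limma). Only mutant replicate 1 and yw replicate 3 overlapped in this gene.

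The 26 single-name genes shared their spread between the arrays of a group. Mutant replicate 1 was the lowest mutant array for 26 of the 26 genes, as it was for 73.7% of the other probe sets over 1000 and for 32.7% of all probe sets. The highest yw array was replicate 3 for 26 of the 26, against 72.2% of the other bright probe sets and 29.5% of all. That yw array was also brighter than mutant replicate 1 for all 26 genes, as for 80.1% of the other bright probe sets and 54.9% of all. The median range within a group was 0.35 in the mutant and 0.38 in yw on the log2 scale. For 25 of the 26 genes the range exceeded the fold change in both groups.

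Expressed as the median deviation from each gene's own mean over 6 arrays, the 26 genes stood at -0.15, 0.17 and 0.24 on mutant replicates 1, 2 and 3, and at -0.22, -0.15 and 0.14 on yw replicates 1, 2 and 3 (log2). The 677 other probe sets over 1000 deviated in the same direction on every array, by -0.07, 0.08 and 0.12 in the mutant and by -0.14, -0.04 and 0.08 in yw. All probe sets together stayed between -0.04 and 0.04. Quantile normalization, which gives every array the same distribution of signals, left the 26 genes between -0.03 and 0.04 on all arrays. The median fold change of the 41 genes was then 0.02, with 28 of 41 above 0. Even the dimmest of the 26 outranked at least 98.3% of probe sets on every array. For genes ranked so high, equal distributions largely remove a shared shift, so the small values that remain cannot tell whether one was present. Median centring, which moved the median fold change of all probe sets by 0.157, gave a median of 0.31 for the 41 genes, or 0.11 for all probe sets.

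**Figure D2:**
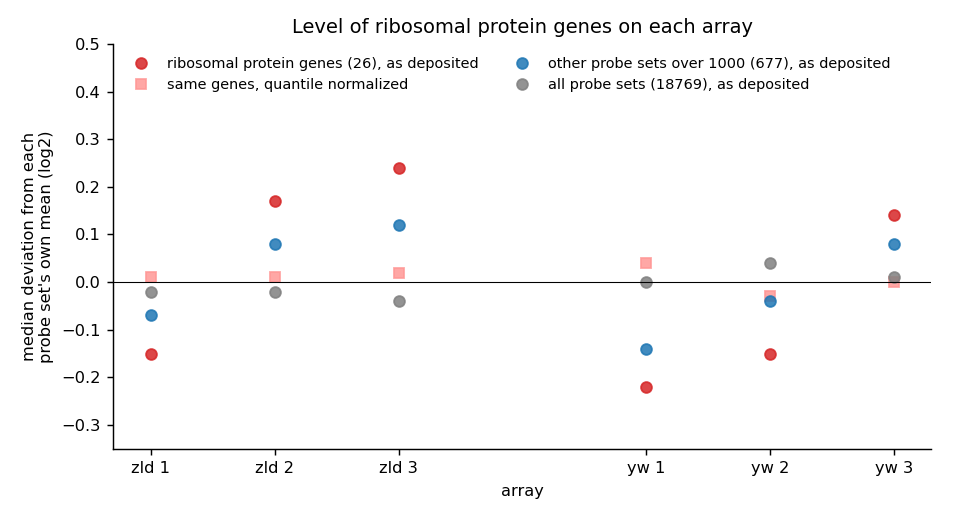
Median deviation of the 26 single-name ribosomal protein genes from each gene's own mean over 6 arrays (vertical axis, log2) on each mutant (zld) and yw array, before and after quantile normalization, beside the 677 other probe sets over 1000 and all 18769 probe sets. As deposited, the ribosomal protein genes run from -0.22 to 0.24 and both groups hold arrays above and below 0. After quantile normalization they lie between -0.03 and 0.04.

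**Figure D3:**
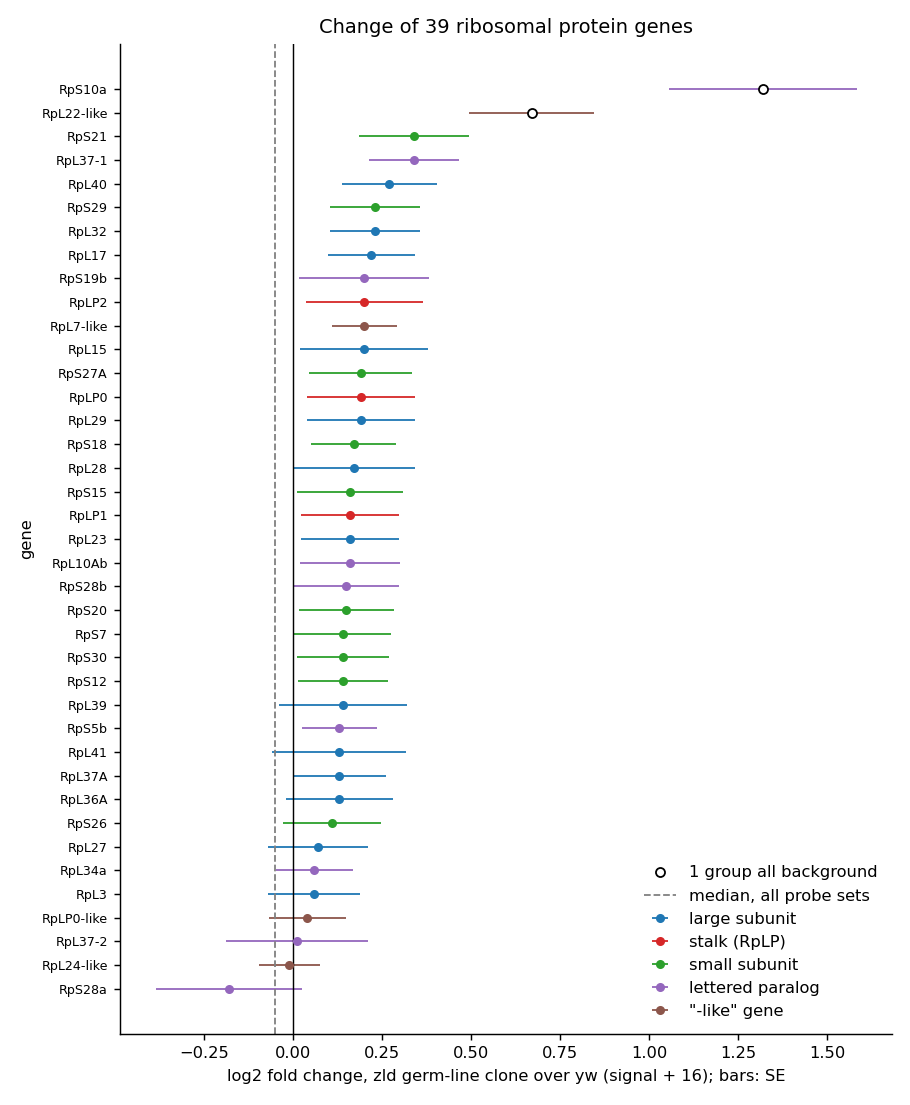
Log2 fold change of the 39 genes with an array above background (horizontal axis, mutant over yw, on signal plus 16), with bars for the SE, coloured by name class, with the median of all probe sets as a dashed line. Open circles mark RpS10a and RpL22-like, whose yw arrays were all in the background, so that their fitted values of 1.32 and 0.67 depend on the constant added; none of the genes was called.

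Each pair of paralogs had 1 bright and 1 dim probe set. In the pair RpL10Aa and RpL10Ab, which encode forms of a protein of the mobile stalk at the tRNA exit side, RpL10Ab had 2245, 2739 and 2796 in the mutant and 2060, 2175 and 2745 in yw. RpL10Aa was in the background on every array, with 1.8, 6.1 and 3.2 in the mutant and 3.3, 17.9 and 5.4 in yw, so no fold is given for it. In the pair RpS28a and RpS28b, RpS28b had 2081, 2625 and 2790 in the mutant and 2072, 2045 and 2634 in yw. RpS28a had 31.8, 32.2 and 32.5 in the mutant and 31.9, 52.7 and 33.1 in yw, above background on all arrays. The groups overlapped in all 4 genes.

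RpL37-1 and RpL37-2, whose RefSeq synonyms are RpL37a and RpL37b, were named as a pair after their values were seen. RpL37-1 had 1612, 1757 and 1881 in the mutant, against 1202, 1344 and 1628 in yw (log2 fold change 0.34, SE 0.126, adjusted p = 0.26, limma), with a single overlap, of 1612 and 1628. RpL37-2 had 50.8, 51.8 and 33.9 in the mutant and 52.6, 40.7 and 40.4 in yw (log2 fold change 0.01, SE 0.199, adjusted p = 0.98, limma). Whether the members of a pair changed unequally was tested on their log2 ratio within each array, which cancels the brightness of the array only in so far as both genes share it. The fold change of the first gene minus that of the second was -0.33 for RpS28a and RpS28b and 0.32 for RpL37-1 and RpL37-2. The exact permutation p (two-sided) was 0.2 and 0.4, each 0.4 after adjustment over the 3 pairs computed. The smallest p that 3 against 3 arrays allow is 0.1, so this test could not pass at 0.05 whatever the values. No difference is given for RpL10Aa and RpL10Ab, since RpL10Aa was in the background throughout. Both pairs hold a gene under 60 on every array, and the ratios rest on these low signals.

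**Figure D4:**
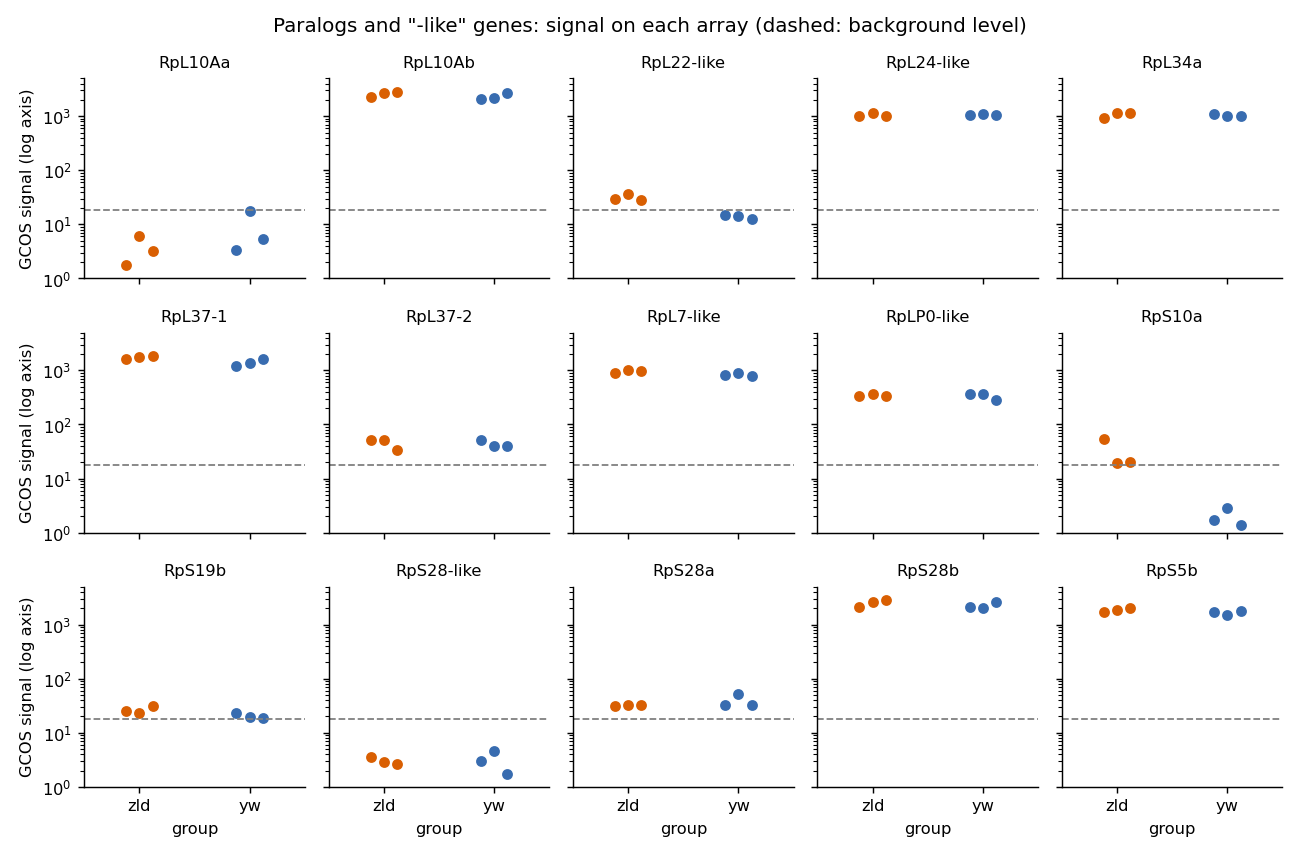
Signal of the 10 lettered or numbered paralogs and the 5 -like genes (vertical axis, log scale) on the 3 mutant (zld, left) and 3 yw (right) arrays, 1 point per array, with the background level of 18.1 dashed. RpS10a and RpL22-like are below the line on all yw arrays and above it on all mutant arrays, while RpL10Aa and RpS28-like are below it throughout.

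RpS10a was above background on every mutant array and on no yw array. Flies have a second gene, RpS10b, for this protein of the small subunit head, which was not analysed here. The signals of RpS10a were 54.6, 19.8 and 20 in the mutant, against 1.7, 2.9 and 1.4 in yw. The groups did not overlap, and all yw signals were background, while 2 of the mutant signals were just over its level of 18.1. Mean signals were 31.5 ± 20 in the mutant and 2.0 ± 0.794 in yw (SD, n = 3 each). With the yw arrays set at the background level, the geometric mean of the mutant arrays, 27.9, gives a difference of at least 1.54-fold. That bound leans on mutant replicate 1, at 54.6. The fitted log2 fold change was 1.32 (SE 0.264) and did not pass (adjusted p = 0.0556, limma). RpS10a was called under 5 of 17 alternatives. With a pseudocount of 1 in place of 16 it was called at 3.30 (adjusted p = 0.01, limma), a value that rests on yw signals in the background. A pseudocount of 64 gave 0.51, which was not called (adjusted p = 0.126, limma). Without mutant replicate 1, the brightest array for this gene, it was called at 1.00 (adjusted p = 0.0188, limma). It was also called with quantile normalization at 1.42 (adjusted p = 0.0339), with median centring at 1.48 (adjusted p = 0.014) and with all probe sets of each gene averaged (adjusted p = 0.0495; RpS10a itself has 1 probe set). Its adjusted p lay between 0.01 and 0.295 across the settings tried.

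RpL22-like, a paralog of a large subunit gene known for its activity in the male germ line, also separated the groups. It had 29.9, 36.5 and 28.1 in the mutant, against 15.0, 14.0 and 12.6 in yw. All yw arrays were background, so the difference was at least 1.73-fold, from the mutant geometric mean of 31.3. Means were 31.5 ± 4.42 and 13.9 ± 1.21 (mutant and yw, SD, n = 3 each). The fitted log2 fold change was 0.67 (SE 0.176, adjusted p = 0.121, limma) and did not pass. RpL22-like was called under 3 of 18 alternatives. Median centring gave 0.82 (adjusted p = 0.0399, limma). Leaving out dim probe sets gave 0.67 (adjusted p = 0.0394, limma), as did fitting no variance trend (adjusted p = 0.034, limma). Its adjusted p lay between 0.034 and 0.309 across the settings tried.

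Germ-line and testis transcripts were read beside these paralogs. Of 8 listed germ-line genes 6 were measured and 0 were called. Fold changes were above 0 for 5 of them, and bam was lower at -0.26 (adjusted p = 0.395, limma). The mutant arrays were all above the yw arrays for 1 of the 6 (16.7%), against 8.11% of all probe sets. This was vas, a helicase of the germ plasm named after its values were seen. It had 63.8, 59.4 and 65.3 in the mutant and 30.8, 28.3 and 29.4 in yw (log2 fold change 0.79, adjusted p = 0.06, limma). Its call depended on the setting: vas was called under 7 of 18 alternatives, with an adjusted p between 0.0102 and 0.265. The germ-line sum was 6111 to 6843 in the mutant and 5683 to 7165 in yw. Of the 8 testis genes, all measured, 0 were called and 3 had a mean signal over background. Fold changes were below 0 for 7 of them. The mutant arrays were all below the yw arrays for 1 (12.5%), Mst98Ca, against 13.6% of all probe sets. The testis sum was 973 to 1242 in the mutant and 886 to 1107 in yw, most of it from twe, which the mother also supplies. Ovary and yolk genes, 8 of 8 measured with 0 called, summed to 92.9 to 138 in the mutant and 126 to 186 in yw. The part of these cells in the signals of RpS10a and RpL22-like was not tested.

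The other lettered paralogs did not differ beyond their spread. RpS5b, the form of its protein typical of the female germ line, had 1703, 1850 and 1992 in the mutant and 1721, 1515 and 1813 in yw (log2 fold change 0.13, SE 0.106, adjusted p = 0.586, limma). Its probe set was bright on every array, and the groups overlapped. RpL34a had 933, 1172 and 1138 in the mutant and 1101, 989 and 1007 in yw (log2 fold change 0.06, SE 0.109, adjusted p = 0.825, limma). RpS19b, also a germ-line form, was dim, with 24.7, 22.8 and 31.3 in the mutant and 23.1, 19.8 and 18.9 in yw (log2 fold change 0.20, SE 0.182, adjusted p = 0.629, limma).

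Among the -like genes, those for assembly factors were well above background. RpL7-like, RpL24-like and RpLP0-like resemble yeast proteins that take part in building the large subunit and are not parts of the finished ribosome. RpL7-like had 901, 1032 and 958 in the mutant, against 825, 892 and 785 in yw. The mutant arrays were all above the yw arrays, by a log2 fold change of 0.20 that did not pass (SE 0.0915, adjusted p = 0.338, limma). RpL24-like had 1031, 1150 and 1000 in the mutant and 1053, 1083 and 1055 in yw (log2 fold change -0.01, SE 0.0865, adjusted p = 0.98, limma). RpLP0-like had 343, 362 and 332 in the mutant and 362, 364 and 289 in yw (log2 fold change 0.04, SE 0.108, adjusted p = 0.902, limma). Mutant replicate 1, the dimmest mutant array for the 26 single-name genes, was not the dimmest for RpL24-like or RpLP0-like. RpS28-like was in the background on all arrays, with 2.6 to 3.6 in the mutant and 1.7 to 4.6 in yw.

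For 3 of the 4 genes with several probe sets the probe sets differed in sign. RpS7 had its brightest probe set at 2440, 3010 and 3191 in the mutant and 2352, 2533 and 2941 in yw (log2 fold change 0.14, SE 0.136, adjusted p = 0.658, limma), and a dim one at 31.4, 37.5 and 25.5 in the mutant and 55.5, 44.0 and 33.6 in yw (log2 fold change -0.34, adjusted p = 0.489, limma). RpL3 likewise had dim probe sets at -0.32 and 0.25, with signals under 80 on all arrays. RpS29 had a pair of bright probe sets at 0.23 and 0.13 and another in the background at -0.02. None of these was called, and the opposite signs came from the dim probe sets. Of the 41 brightest probe sets 17 carry the suffix _s or _a, which marks probes that match more than 1 transcript, so signals of several transcripts may be mixed in them.

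Genes that make or work with ribosomes were read from lists of 68 entries, and 55 of them were measured. None was called in either direction (limma), and 5 were higher and 2 lower at an unadjusted p under 0.05, where 6.69% and 8.67% of all probe sets were. Their median fold change was 0.01. The mutant arrays were all above the yw arrays for 6 of the 55 (10.9%) and all below for 3 (5.45%), against 8.11% and 13.6% of all probe sets. The 4 elongation factors measured of 7 had fold changes of 0.02 to 0.95 and a median of 0.16. The 23 initiation factors of 28 had a median of 0.07, with 19 (82.6%) above 0. Of all probe sets 38.1% were above 0, and of the other probe sets over 1000, 73.6%. The 22 ribosome biogenesis genes of 24 had a median of -0.09 on the deposited scale, with 17 below 0 and 22.7% above. All probe sets had a median of -0.05 and 38.1% above 0. Most of those probe sets are dimmer, with a median of mean signals of 19.0, against 80.2 to 1527.4 in this list. Of the biogenesis genes with a mean signal over 1000, Non2 was above 0 (0.25). Nop56 (-0.06), Nop60B (-0.20), Non1 (-0.13), Nnp-1 (-0.11), Nopp140 (-0.08) and Tif-IA (-0.04) were below 0. Among the other probe sets over 1000, 73.6% were above 0. Of the ribosomal proteins 4 of 41 were below 0, but most of these probe sets are over 1000, where 73.6% of the others were above 0. The difference between the lists was not tested. The 6 regulators of 9, among them Trf2, M1BP and Dref, had a median of -0.00.

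Examples from these lists, named after their values were seen, follow. Rack1, a scaffold bound to the small subunit, was also dimmest on replicate 1 and brightest on replicate 3 of each group, with 2119, 2504 and 2647 in the mutant and 1874, 2203 and 2616 in yw (log2 fold change 0.13, adjusted p = 0.71, limma). So did eEF5, a factor for peptide bond formation at difficult sites, with 2254, 2898 and 3044 in the mutant and 1916, 2344 and 2924 in yw (log2 fold change 0.20, adjusted p = 0.628, limma). The elongation factor gene eEF1alpha2 separated the groups. It had 67.9, 48.9 and 60.6 in the mutant, against 22.3, 26.1 and 19.6 in yw (log2 fold change 0.95, adjusted p = 0.0556, limma), and was called under 7 alternatives, with an adjusted p between 0.0125 and 0.239 across the settings tried. The biogenesis gene l(2)k09022, a relative of yeast UTP10, had 368, 419 and 375 in the mutant, against 483, 534 and 501 in yw (log2 fold change -0.37, adjusted p = 0.0947, limma), with no overlap, and was called with dim probe sets left out (adjusted p = 0.0446).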

How the data were processed

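Total RNA of embryo collections was measured on 6 Affymetrix Drosophila Genome 2 arrays, 3 for zld germ-line clones and 3 for yw. Per the labels, the authors scanned, scaled and normalized the arrays with GCOS (release not stated); the deposited intensity values are linear signals, and their mean without the lowest and highest 2% was 150.0 on every array. The 183 control probe sets were left out. Signals were tested as log2(signal + 16) with limma 3.58.1 in R 4.3.3 (lmFit, eBayes with trend), group as the only term, Benjamini-Hochberg over 18769 probe sets, called under 0.05; the script was tested on simulated data. Pairs of paralogs had exact permutation tests. Symbols came from the platform table and RefSeq (GCF_000001215.4); no coordinates or sequences were used.

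Named genes were the paralogs, -like and stalk genes, the 4 largest differences each way, the 3 lowest p-values, the 4 brightest, those in the background, genes with probe sets of opposite sign, and zld. Others, among them RpL32, RpL40, Rack1, eEF5, eEF1alpha2, l(2)k09022 and vas, were named after their values were seen. Members and lists were chosen with earlier results of these data known. Alternatives were pseudocounts of 1 and 64, dim probe sets left out, quantile normalization, median centring, no trend, array weights, a replicate block, suffixed probe sets left out, arrays left out, the methods' t-test and the mean over a gene's probe sets. Python 3.11.15 with pandas 2.3.3, scipy 1.17.1 and matplotlib 3.10.9 made tables and figures.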

Additional observations from a re-analysis of the deposited data

How the results depend on the processing

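Over all probe sets, 146 were called lower and 162 higher; 264 and 327 with dim probe sets left out, 127 and 552 with median centring, 76 and 75 with the replicate block, 43 and 51 without yw replicates 1 and 2 together, and 0 and 2 with the methods' t-test after adjustment (1485 and 1006 unadjusted), when zld also lost its call (adjusted p = 0.0836). Leaving out 1 array gave 45 to 213 lower and 35 to 227 higher (without mutant replicates 1, 2 and 3 in turn 66, 56 and 45 lower and 69, 46 and 35 higher; without yw replicates 1, 2 and 3 in turn 137, 90 and 213 lower and 227, 114 and 110 higher). Ribosomal protein genes called lower stayed at 0 under every setting run. Those called higher were 1 with a pseudocount of 1, quantile normalization, the mean over a gene's probe sets or mutant replicate 1 left out (RpS10a), 1 with dim probe sets left out or no variance trend (RpL22-like), and 2 with median centring (both). Leaving out 1 array gave 0 to 1. Of the other translation genes, 1 was called higher (eEF1alpha2) with a pseudocount of 1, dim probe sets left out, quantile normalization, median centring, no variance trend or array weights (its adjusted p was 0.048 with probe sets averaged per gene, where the list was not counted), and 1 lower (l(2)k09022) with dim probe sets left out. The median of the 41 genes was 0.09 to 0.27 with 1 array left out, and -0.03 without yw replicates 1 and 2, when that of the 26 single-name genes was -0.06 and 7 of 26 were above 0. In that setting, of the genes followed singly, RpL10Ab (-0.09), RpL15 (-0.10), RpL27 (-0.12), RpL3 (-0.14), RpLP0 (-0.06), RpLP1 (-0.06), RpLP2 (-0.09), RpS28b (-0.09), RpS30 (-0.03), RpS7 (-0.04), eEF5 (-0.11) and Rack1 (-0.12) turned below 0, and the pair differences were 0.06 for RpS28a and RpS28b and -0.01 for RpL37-1 and RpL37-2. Not every member was followed singly, so the turned genes named here and below are a part of those that turned. Quantile normalization left 17 of the 26 single-name genes above 0. Of the genes followed singly it turned RpL27 (-0.06), RpL3 (-0.07), RpL34a (-0.01), RpS30 (-0.01), RpS7 (-0.01) and Rack1 (-0.02), median centring RpL24-like (0.15), array weights RpL37-2 (-0.01), leaving out suffixed probe sets RpL3 (-0.32) and RpS7 (-0.34), and the mean over probe sets RpS7 (-0.10). With 1 array left out, values turned for 5 of the genes followed singly: RpL24-like ran from -0.07 to 0.03, RpL37-2 ran from -0.06 to 0.16, RpL27 ran from -0.02 to 0.18, RpL3 ran from -0.03 to 0.16 and RpLP0-like ran from -0.07 to 0.09. Without yw replicate 1, 23 of the 26 single-name genes were above 0. None of these turned values was called, and the cause was not tested. Deviations of same-numbered arrays correlated at 0.175, -0.0111 and -0.0315 across the brighter probe sets. Only mutant replicate 1 correlated best with its own number. Such correlations cannot decide whether same-numbered arrays were handled together. Of the 26 single-name genes, replicate 1 was lowest for 26 in the mutant and 21 in yw, and replicate 3 highest for 24 and 26. With the replicate block 0 members were called. Adjusted p (limma) then fell for RpL15 (0.627 to 0.287) and RpS21 (0.341 to 0.139), and rose for RpS10a (0.0556 to 0.0826) and RpL22-like (0.121 to 0.195). Genes at background, among them RpL10Aa and RpS28-like, have no measurable change.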

Other observations

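Probe sets whose platform annotation names a ribosomal protein gene together with another gene were kept out of the 41 genes, and none of the 3 was called. The probe set shared by euc and RpLP0 had 17.9, 19.6 and 28.2 in the mutant, against 12.7, 17.4 and 15.9 in yw, where 1 of the mutant signals and all 3 yw signals were background (adjusted p = 0.527, limma). The one shared by CG34164 and RpL7-like had 23.8, 5.2 and 18.4 in the mutant and 13.5, 41.5 and 23.9 in yw (log2 fold change -0.41, adjusted p = 0.583, limma). The one shared by a small nucleolar RNA and RpL28 was in the background on all arrays. A second probe set of RpS30, made as a fusion with a ubiquitin-like protein, had 445, 358 and 348.4 in the mutant, against 330, 322 and 348.3 in yw, the groups nearly touching (log2 fold change 0.19, adjusted p = 0.453, limma).

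Among the initiation factors, the eIF3 subunit genes eIF3i, eIF3j and eIF3m were named after their values were seen, as the 3 of the 23 whose mutant arrays were all above the yw arrays. That is 13.0% of the list, against 8.11% of all probe sets and 9.75% of other probe sets over 1000. The eIF3m probe set had 861, 898 and 922 in the mutant, against 768, 728 and 750 in yw (log2 fold change 0.25, adjusted p = 0.174, limma). The eIF3j probe set had 634, 683 and 634 in the mutant, against 587, 478 and 571 in yw (log2 fold change 0.25, adjusted p = 0.282, limma). The eIF3i probe set had a log2 fold change of 0.16 (adjusted p = 0.42, limma). None of these differences passed.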
